A study of Homo sapiens with 5 samples.

Results

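The HMLE line that overexpressed TWIST1 was compared with the HMLE line that carried LACZ, with 1 Affymetrix array of total RNA for each, which makes 2 of the 5 arrays of the study. HMLE cells are immortalised epithelial cells of the human breast, and LACZ is a bacterial reporter gene that serves as the overexpression control. The other 3 arrays came from HMLE lines that overexpressed FOXQ1, SNAI1 or ZEB2, and the study set out to find the genes these models of the epithelial to mesenchymal transition (EMT) have in common. All lines were harvested untreated at near confluence. Whether the TWIST1 line was a clone or a pool, and which promoter drove the gene, is not given in the sources used here.

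Every value is a level as deposited, taken to be log2, or a difference of levels, TWIST1 minus LACZ, on that scale. The members of the comparison were all 14916 genes with a named probe set, of 65521 probe sets on the array table. Where a gene had several probe sets, the brightest by its mean of the 5 arrays stood for it. They lie on chromosomes 1 to 8 and part of chromosome 9, and 7794 of them are protein-coding. With 1 array per line no difference has a replicate error, and no test was made. A gene was called when the 2 arrays differed by 1 or more on the log2 scale, which is 2-fold if the base is 2, and the brighter array was at or above a level of 4.72. Where the dimmer array lay below that floor, the difference is not an exact ratio.

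TWIST1 is a basic helix-loop-helix (bHLH) transcription factor that forms dimers with E proteins and binds E-boxes, short DNA motifs of the form CANNTG. In the embryo it is needed for the mesoderm and for cells that leave the neural crest. In mammary epithelial cells its overexpression is known to drive EMT, in which cells lose tight and adherens junctions, make more extracellular matrix and become motile. ID proteins lack the DNA-binding part of bHLH factors and bind E proteins in their place.

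The TWIST1 gene (chromosome 7, 19113047 to 19117636, GRCh38.p14) stood at 9.96 on the TWIST1 array, against 5.55 on LACZ, a difference of 4.41. Its level on the other arrays was 8.2 on FOXQ1, 9.18 on SNAI1 and 8.55 on ZEB2, so the label of the TWIST1 array goes with the highest of the 5 levels. Whether the probes lie in the sequence of the overexpression construct is not known here.

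Among the named genes, more were called higher than lower on the TWIST1 array. Probe sets without a gene symbol, described near the end, had more lower than higher calls. Of the 14916 genes, 1715 (11.5%) were called, 1085 of them higher (7.27%) and 630 lower (4.22%), so 63.3% of the calls were higher. Of the 7970 genes at or above the floor on either array, 13.6% were higher and 7.9% lower. That split depended on the scaling: with quantile normalization over the named genes alone, 884 genes were higher and 783 lower, or 53% higher. Over all genes the difference had a median of 0, the middle 50% of genes lay between -0.26 and 0.3, and 10329 genes (69.2%) were within 0.5 of 0. Array medians over all probe sets were 4 on TWIST1 and 4.05 on LACZ.

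Most called genes differed modestly, and a few by very much. The median size was 1.54 for the higher and 1.46 for the lower genes. At least 8-fold differences were found for 143 higher and 82 lower genes, and at least 32-fold differences for 51 higher and 29 lower genes. For 200 of the higher genes (18.4%) the LACZ array was below the floor, and for 191 of the lower genes (30.3%) the TWIST1 array was. The genes just inside the threshold were AKAP7 and B4GALT2 at 1 and GMDS and LINC01106 at -1, and those just outside were BTBD6P1 and CENPL at 0.99 and CALHM6 and CYCSP20 at -0.99.

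**Figure D1:**
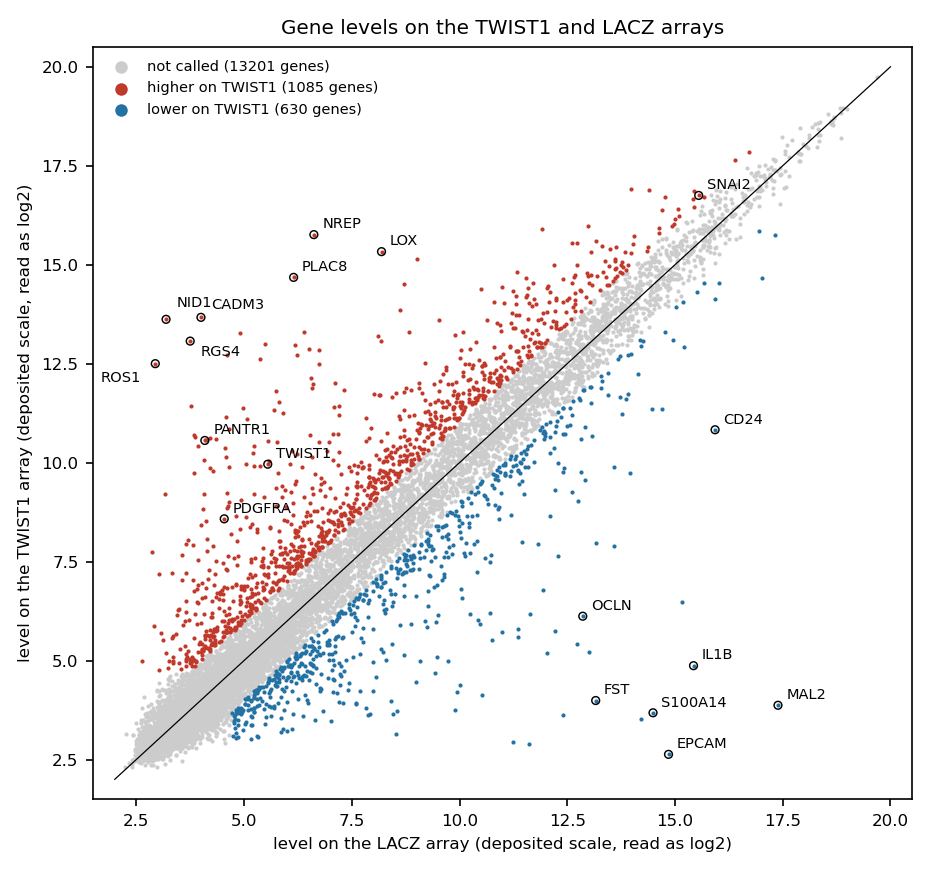
Each point is 1 of 14916 genes, with its level on the TWIST1 array (vertical axis) against its level on the LACZ array (horizontal axis), both read as log2, and the line marks equal levels. Red points are the 1085 genes called higher and blue points the 630 called lower on TWIST1, and the circled genes reach from NID1, at 13.62 on TWIST1 against 3.19 on LACZ, to MAL2, at 3.87 against 17.39.

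The calls leaned differently by kind of gene and by level. Among protein-coding genes 975 were higher (12.5%) and 420 lower (5.39%), so 69.9% of their calls were higher. Long noncoding RNA genes were near balance, with 50 of 1428 higher and 42 lower. Small and non-functional gene copies leaned the other way: 4 of 590 microRNA genes were higher and 25 lower, 3 of 50 snoRNA genes were higher and 10 lower, and 32 of 4444 pseudogenes were higher and 118 lower. The share of calls that were higher also moved with the mean level of the gene. It was 47.1% for genes with a mean level under 5 and 80.3% for those at 12 or more, where 163 genes were higher and 40 lower. How far the level accounts for the leaning of each kind of gene was not tested.

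NID1, the basement membrane glycoprotein nidogen 1 (chromosome 1, 235975830 to 236065090), had the largest higher difference, with a level of 13.62 on TWIST1, against 3.19 on LACZ. CADM3, a nectin-like cell adhesion molecule best known from neurons (chromosome 1, 159171615 to 159203313), stood at 13.67 on TWIST1 and 4 on LACZ. ROS1, an orphan receptor tyrosine kinase (chromosome 6, 117287353 to 117425942), stood at 12.5 on TWIST1 and 2.94 on LACZ. All 3 genes lay below the floor on the LACZ array and far above it on TWIST1.

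RGS4, which shortens signalling through heterotrimeric G proteins, had 13.07 on TWIST1 and 3.75 on LACZ. NREP, a protein linked to regenerating neurons and to myofibroblasts (chromosome 5, 111728802 to 111976932), had 15.76 on TWIST1 and 6.62 on LACZ. PLAC8, a small cysteine-rich protein, had 14.68 on TWIST1 and 6.15 on LACZ. LTBP1, which ties latent TGF-beta to the matrix, had 13.27 on TWIST1 and 4.9 on LACZ, and its difference was 8.37.

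The next genes in order of difference were ABI3BP at 8.1, ENPP2 at 7.66, CDH18 at 7.52, BIN1 at 7.24, LOX at 7.14, HHIP at 6.92, PRRX1 at 6.87 and DOCK10 at 6.79. ENPP2 encodes autotaxin, the secreted enzyme that makes lysophosphatidic acid. HHIP binds and blocks hedgehog ligands, and BIN1 bends membranes. ENPP2 and DOCK10 each had 2 probe sets that did not move alike, and by the median of the probe sets they differed by 4.37 and 3.96.

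MAL2, a protein of apical transport (chromosome 8, 119208363 to 119245673), had the largest lower difference, with a level of 3.87 on TWIST1, against 17.39 on LACZ. EPCAM, an adhesion molecule of epithelial cells (chromosome 2, 47369311 to 47387020), had 2.63 on TWIST1 and 14.85 on LACZ. S100A14, a calcium-binding protein of epithelia (chromosome 1, 153614255 to 153616325), had 3.68 on TWIST1 and 14.49 on LACZ. ESRP1 directs the epithelial pattern of splicing. It had 3.53 on TWIST1 and 14.22 on LACZ, so that these 4 genes were bright on LACZ and below the floor on TWIST1.

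The cytokine genes IL1B and IL1A, close together on chromosome 2, had levels of 4.87 and 6.49 on TWIST1, against 15.43 and 15.17 on LACZ. FST encodes follistatin, a secreted antagonist of activin, and had 3.99 on TWIST1 and 13.16 on LACZ. RAB25, a GTPase that recycles vesicles in epithelia, had 3.62 on TWIST1 and 12.39 on LACZ. These were followed by FAM83B at -8.73, MACC1 at -8.28, FGFBP1 at -7.79, HOOK1 at -7.32, OCLNP1 at -6.84, OCLN at -6.74 and CLDN1 at -6.47. MACC1 had 2 probe sets and differed by -4.35 with their median. OCLNP1 is a pseudogene of OCLN, and the signals of the pair may not be separable.

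**Figure D2:**
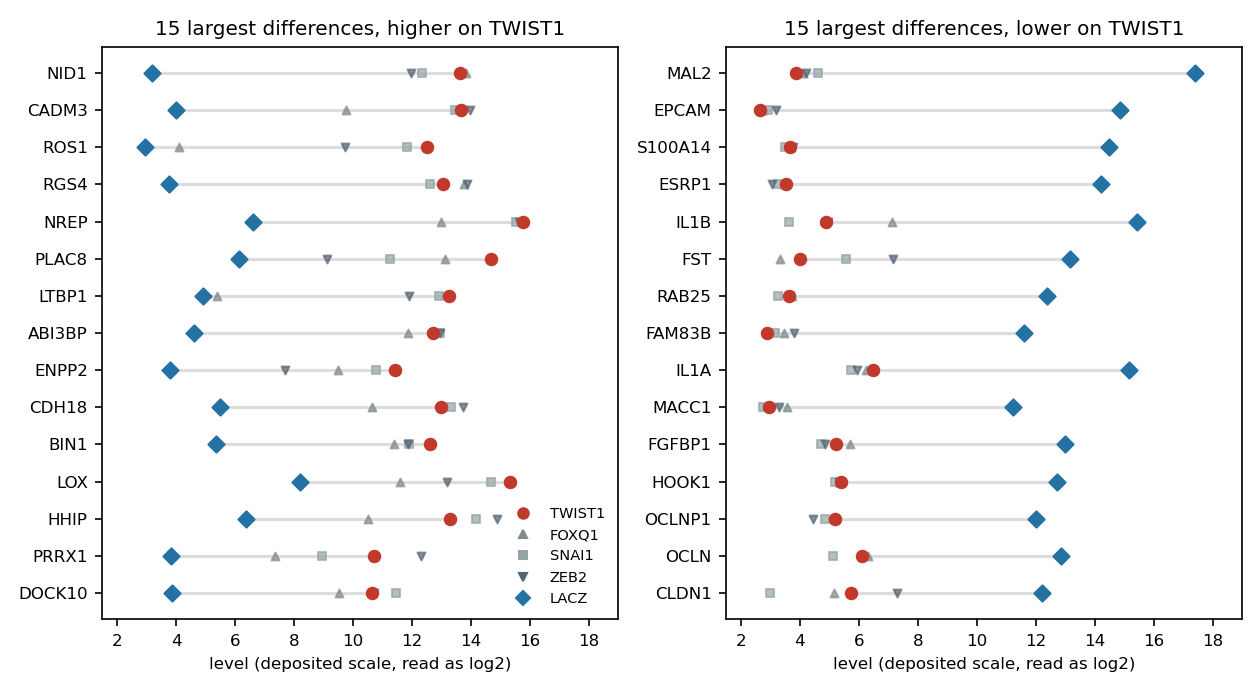
The levels of the 15 genes with the largest higher (left) and lower (right) difference are plotted as deposited (log2) for all 5 arrays, with TWIST1 as red circles, LACZ as blue diamonds and the FOXQ1, SNAI1 and ZEB2 arrays in grey. TWIST1 lies far from LACZ, from 13.62 against 3.19 for NID1 to 5.75 against 12.22 for CLDN1. Another factor array can lie beyond TWIST1, as SNAI1 does for CLDN1, at 2.99. For ROS1 and LTBP1 the FOXQ1 array, at 4.09 and 5.39, lies near LACZ.

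Promoters of genes in both directions were searched for E-boxes, because TWIST1 and other EMT factors are known to bind them. RefSeq promoter windows of GRCh38.p14, 250 bases before to 50 after the gene start, were matched to 7365 of the 14916 genes. The 250 bases before the start are shown for 4 of the genes with the largest lower differences whose window holds CAGGTG or CACCTG, and for 2 genes higher on TWIST1 whose window holds other E-boxes. Capitals mark each CANNTG, and each line reads 5′ to 3′ on the strand of the gene.
S100A14, chr1:153616326-153616575, minus strand: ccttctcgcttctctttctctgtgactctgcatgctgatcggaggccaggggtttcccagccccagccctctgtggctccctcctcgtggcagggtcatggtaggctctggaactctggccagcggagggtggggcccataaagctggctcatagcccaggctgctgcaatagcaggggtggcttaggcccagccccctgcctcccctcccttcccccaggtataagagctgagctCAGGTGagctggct
RAB25, chr1:156060910-156061159, plus strand: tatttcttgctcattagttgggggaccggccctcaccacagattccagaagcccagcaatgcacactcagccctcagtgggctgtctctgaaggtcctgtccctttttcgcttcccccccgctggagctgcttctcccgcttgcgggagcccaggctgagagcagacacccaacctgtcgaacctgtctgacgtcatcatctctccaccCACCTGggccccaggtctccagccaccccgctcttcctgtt
OCLN, chr5:69492297-69492546, plus strand: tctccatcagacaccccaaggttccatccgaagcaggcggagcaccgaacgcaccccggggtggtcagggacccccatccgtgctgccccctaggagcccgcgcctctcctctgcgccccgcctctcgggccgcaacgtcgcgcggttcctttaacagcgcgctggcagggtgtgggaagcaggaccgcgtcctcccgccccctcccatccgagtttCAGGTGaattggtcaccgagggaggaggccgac
HOOK1, chr1:59814699-59814948, plus strand: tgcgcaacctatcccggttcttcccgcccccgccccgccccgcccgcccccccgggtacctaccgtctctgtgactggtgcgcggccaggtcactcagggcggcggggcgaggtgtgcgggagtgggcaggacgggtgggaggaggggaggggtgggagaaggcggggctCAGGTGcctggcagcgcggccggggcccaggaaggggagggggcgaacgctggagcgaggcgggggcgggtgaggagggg
NREP, chr5:111976933-111977182, minus strand: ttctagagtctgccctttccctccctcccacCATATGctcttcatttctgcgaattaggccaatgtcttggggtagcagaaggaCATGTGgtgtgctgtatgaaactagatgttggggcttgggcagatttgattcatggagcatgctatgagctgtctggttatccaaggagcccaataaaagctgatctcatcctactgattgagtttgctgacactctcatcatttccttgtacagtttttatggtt
PDGFRA, chr4:54229043-54229292, plus strand: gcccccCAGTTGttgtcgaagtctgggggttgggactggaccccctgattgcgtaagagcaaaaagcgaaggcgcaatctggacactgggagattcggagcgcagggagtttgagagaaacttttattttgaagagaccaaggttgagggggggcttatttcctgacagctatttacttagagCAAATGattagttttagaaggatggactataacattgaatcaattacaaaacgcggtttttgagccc

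The E-box of S100A14 is CAGGTG and begins 14 bases before the start. Those of OCLN and HOOK1 are CAGGTG too, 33 and 80 bases before, and that of RAB25 is CACCTG, the same site on the other strand, 41 bases before. NREP holds CATATG 219 and CATGTG 166 bases before its start, and PDGFRA, whose values are given further on, holds CAGTTG 244 and CAAATG 67 bases before.

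Among protein-coding genes, the promoter windows of genes lower on TWIST1 held CAGGTG or CACCTG more often than those of all measured genes. This motif was added after the data were seen. The motif, read on both strands, was in 103 of 341 windows of lower genes (30.2%), in 117 of 804 windows of higher genes (14.6%) and in 1252 of all 6393 windows (19.6%). Of the 15 genes with the largest lower differences, 11 had a window and 6 of those held the motif: S100A14, FST, RAB25, MACC1, HOOK1 and OCLN. These 6 genes were far below LACZ on the FOXQ1, SNAI1 and ZEB2 arrays as well. Their differences there ran from -5.99 for FST on ZEB2 to -11.01 for S100A14 on SNAI1. The motif shares were not counted for genes called on the other factor arrays. The genes of the EMT factors ZEB2 and SNAI2 were themselves higher on the TWIST1 array, at 3.46 and 1.2. Which factor, if any, acts through the motif was not tested. Of the 15 with the largest higher differences, 14 had a window and 0 held it.

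On the lower side the share was larger at larger differences. It was 24.3% (53 of 218) for genes 2-fold to under 4-fold lower, 31.7% (20 of 63) for those 4-fold to under 8-fold lower, and 50% (30 of 60) for those 8-fold or more lower. On the higher side it was 15.1% (83 of 550), 12.6% (19 of 151) and 14.6% (15 of 103) for the same steps. Larger lower differences also need a brighter level on LACZ, and motif shares by level were not counted. The share over all windows includes genes below the floor, and none was counted for genes at the floor alone. These shares are descriptions without a test.

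Other E-box sequences did not differ as much between the groups. Any CANNTG, which includes all motifs named here, was in 62.7% of the windows of higher genes, 66.6% of those of lower genes and 64.8% of all. CATATG was in 1.74% of the windows of higher genes, 2.35% of those of lower genes and 1.88% of all. CAGATG or CATCTG, which are 1 site on 2 strands, was in 10.3% of higher, 10.9% of lower and 11.1% of all windows. CAGCTG was in 18.9% of higher, 16.1% of lower and 17.6% of all windows, and CACGTG in 10.2% of higher, 8.8% of lower and 8.56% of all. CAGCTG and CACGTG were also added after the data were seen. The median GC content was 65% in windows of higher genes, 64.7% in those of lower genes and 62.7% in all, and its part in the shares was not tested. A match is a description of letters in a window and shows no binding.

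**Figure D3:**
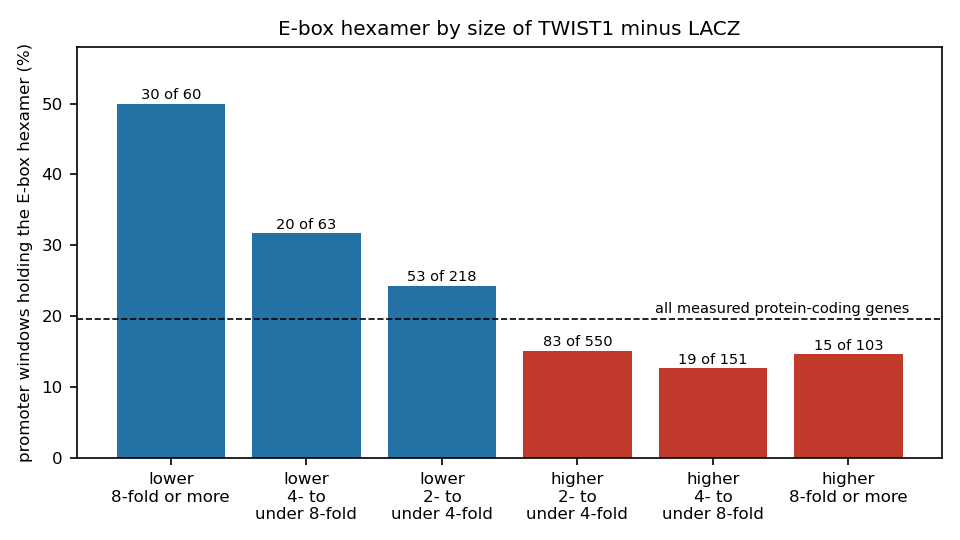
Bars give the percentage of promoter windows of protein-coding genes that hold the hexamer named in the text, read on both strands, by direction and size of TWIST1 minus LACZ, with the number of windows above each bar and a dashed line at 19.6%, the share over all 6393 windows. Genes 8-fold or more lower on TWIST1 stand at 50%, while the 3 bars of higher genes lie between 12.6% and 15.1%. The hexamer was added after the data were seen.

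Genes of related function were then followed by list. For each list the number of measured members called higher and lower is given, with the median difference over all measured members, beside medians of 0 for all genes and 0.08 for protein-coding genes, and calls of 12.5% higher and 5.39% lower for protein-coding genes. A call needs the floor, which 5218 of the 7794 protein-coding genes reached on TWIST1 or LACZ. Among those 5218 the median was 0.21, with 975 higher and 420 lower. That is the nearer baseline for lists whose members mostly reach the floor. Lists were chosen with results of these data known, so their counts describe the arrays.

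The epithelial lists were mostly lower on TWIST1. Of 23 measured epithelial surface and trafficking genes 14 were lower and 1 higher (list median -2.3). CHMP4C, a protein of membrane scission, had 7.89 on TWIST1 and 13.58 on LACZ. CD24, a surface glycoprotein of epithelial cells, kept a clear signal on TWIST1, with 10.83 against 15.93 on LACZ. MUC1, a membrane mucin of luminal cells, was the member that was higher, with 9.32 on TWIST1 and 6.77 on LACZ. Of 8 epithelial transcription and splicing regulators 5 were lower and 1 higher (list median -1.12). GRHL2, a grainyhead factor that upholds epithelial gene expression, had 3.72 on TWIST1 and 8.54 on LACZ. TFAP2A stayed bright on both arrays at 11.38 on TWIST1 and 12.56 on LACZ. TRPS1, a GATA-type repressor, was the higher member at 2.31, but was under 2-fold when its probe sets were summarised by their median.

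Junction genes were lower in part. Of 25 measured tight and adherens junction genes 7 were lower and 2 higher (list median -0.03). OCLN, the membrane protein occludin, had 6.12 on TWIST1 and 12.86 on LACZ, and CLDN1, a sealing claudin, had 5.75 on TWIST1 and 12.22 on LACZ. MARVELD2, or tricellulin, which seals the points where 3 cells meet, had 7.63 on TWIST1 and 12.28 on LACZ, and the scaffold PATJ had 6.02 on TWIST1 and 10.43 on LACZ. CTNNA1 and CTNNB1, the catenins that link cadherins to actin, had 13.81 and 13.87 on TWIST1, against 13.51 and 13.2 on LACZ, and were not called. CLDN11, a claudin known from myelin and the testis, was higher, with 10.53 on TWIST1 and 6.74 on LACZ. Of 7 desmosome and hemidesmosome genes 4 were lower and 0 higher (list median -1.47), among them EPPK1 at -3.34, the desmosomal plaque protein DSP at -3.05 and PERP at -2.53.

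Of 26 genes of the cornified envelope and S100 family 6 were lower and 1 higher (list median -0.04). IVL, the envelope protein involucrin, had 3.94 on TWIST1 and 7.3 on LACZ. S100A8 and S100A9, partners in calprotectin, had 4.43 and 4.6 on TWIST1, against 7.43 and 7.26 on LACZ. S100A4, a calcium-binding protein common in mesenchymal cells, was the higher member, with 12.46 on TWIST1 and 10.31 on LACZ.

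**Figure D4:**
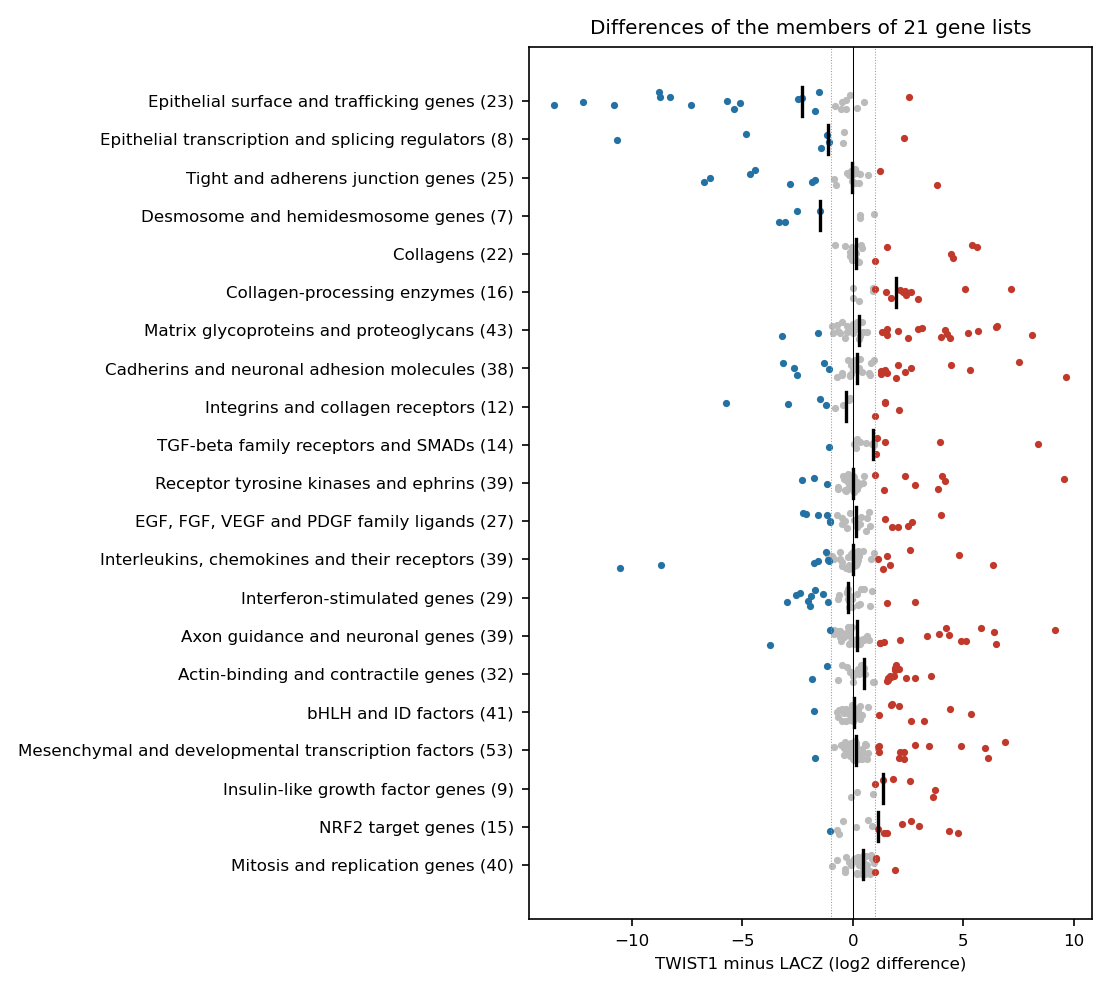
Each point is a measured member of 1 of 21 gene lists (number of members in brackets), placed by its log2 difference, TWIST1 minus LACZ, with called higher members in red, called lower members in blue, members not called in grey, the list median as a black bar and dotted lines at 2-fold. The epithelial surface list reaches down to -13.52 with a median of -2.3, and the collagen-processing enzymes lie at or above 0 with a median of 1.94.

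Matrix genes were more often higher than lower, and the enzymes that modify collagen had the highest share. Of 16 measured collagen-processing enzymes 11 were higher (68.8%) and 0 lower (list median 1.94). LOX, the lysyl oxidase that cross-links collagen and elastin, had 15.33 on TWIST1 and 8.19 on LACZ. P3H1, a prolyl hydroxylase, had 13.19 on TWIST1 and 8.11 on LACZ, and its partner CRTAP had 14.14 on TWIST1 and 11.72 on LACZ. The lysyl hydroxylases PLOD2 and PLOD1 had 16.92 and 11.75 on TWIST1, against 13.98 and 9.12 on LACZ.

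The collagen genes themselves were called in fewer cases, and 7 of the 22 measured reached the floor on either array. Of the 22 collagens 6 were higher and 0 lower (list median 0.14). COL6A3, a chain of the microfibrillar collagen VI, had 11.33 on TWIST1 and 5.7 on LACZ. COL8A1, a network-forming chain, had 11.98 on TWIST1 and 6.6 on LACZ. The fibrillar chains COL1A2 and COL5A2 had 11.84 and 8.43 on TWIST1, against 7.32 and 4 on LACZ. Of 16 basement membrane genes 3 were higher and 0 lower (list median 0.17), namely NID1, COL8A1 and LAMC1, the laminin gamma chain, which had 13.62 on TWIST1 and 11.88 on LACZ. LAMB1, the laminin beta chain, had 12.1 on TWIST1 and 11.69 on LACZ and was not called.

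Of 43 measured matrix glycoproteins and proteoglycans 17 were higher (39.5%) and 2 lower (list median 0.29). ABI3BP, a matrix protein of connective tissue, had 12.71 on TWIST1 and 4.61 on LACZ. VCAN, the large proteoglycan versican, had 10.43 on TWIST1 and 3.93 on LACZ, and HAS2, which makes hyaluronan, the partner of versican in the matrix, had 9.87 on TWIST1 and 4.22 on LACZ. FN1, fibronectin, was bright on both arrays, with 16.9 on TWIST1 and 14.4 on LACZ. Syndecans, the membrane heparan sulfate proteoglycans, went both ways: SDC2 had 12.73 and SDC3 had 8.52 on TWIST1, against 6.22 and 4.11 on LACZ, while SDC1, the epithelial syndecan, had 7.3 on TWIST1 and 8.86 on LACZ.

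Of 26 measured extracellular proteases 8 were higher and 2 lower (list median 0.29). CPA4, a metallocarboxypeptidase, had 11.39 on TWIST1 and 4.97 on LACZ. MME, the cell surface peptidase neprilysin, had 12.85 on TWIST1 and 6.74 on LACZ, and CPE, which trims prohormones, had 9.97 on TWIST1 and 5.04 on LACZ. The lower members were the epithelial serine protease TMPRSS11E at -2.26 and the cathepsin CTSS at -2.16. Of 9 protease inhibitors 3 were higher and 4 lower (list median 0.07), with TFPI, the inhibitor of tissue factor, at 4.32 and its relative TFPI2 at -2.57.

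Adhesion genes were called in both directions. Of 38 measured cadherins and neuronal adhesion molecules 12 were higher and 5 lower (list median 0.21). CDH18, a type II cadherin, had 13 on TWIST1 and 5.48 on LACZ. NECTIN3 had 11.89 on TWIST1 and 6.57 on LACZ. Members of the giant FAT cadherins split, with FAT4 at 10.03 on TWIST1 and 5.59 on LACZ, and FAT2 at 4.26 on TWIST1 and 7.41 on LACZ. Of 12 integrins and collagen receptors 4 were higher and 4 lower (list median -0.29). ITGA2 and ITGA6, alpha chains that pair with beta 1 to bind collagen and laminin, had 9.3 and 13.29 on TWIST1, against 12.22 and 14.76 on LACZ. ITGA4, which binds fibronectin and VCAM1, had 7.46 on TWIST1 and 5.99 on LACZ. ITGB6, an epithelial beta chain, had 5.6 on TWIST1 and 11.36 on LACZ by its brightest probe set, but a difference of -0.08 by the median over its probe sets.

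Ligands and receptors of growth factor pathways were called in both directions. Of 39 measured receptor tyrosine kinases and ephrins 8 were higher and 3 lower (list median 0). FGFR1 had 7.18 on TWIST1 and 3.02 on LACZ. PDGFRA and PDGFRB, the receptors of platelet-derived growth factors on mesenchymal cells, had 8.58 and 8.65 on TWIST1, against 4.54 and 4.81 on LACZ. EGFR, the receptor of EGF family ligands, had 10.8 on TWIST1 and 11.97 on LACZ, and EPHA1, an ephrin receptor, had 4.13 on TWIST1 and 6.42 on LACZ.

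Of 27 measured EGF, FGF, VEGF and PDGF family ligands 6 were higher and 6 lower (list median 0.14). PDGFC, a ligand of PDGFRA, had 11.2 on TWIST1 and 7.2 on LACZ, and FGF2, a ligand of FGFR1, had 14.02 on TWIST1 and 11.32 on LACZ. VEGFC, a lymphatic growth factor, was higher at 1.79, while VEGFA was lower at -1.04. The EGF family ligands TGFA, HBEGF and NRG1 had 4.93, 8.47 and 10.16 on TWIST1, against 7.2, 10.05 and 11.31 on LACZ, and EREG, of the same family, had 8.23 on TWIST1 and 6.79 on LACZ.

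In the TGF-beta family, receptors and SMADs had a median of 0.91, with 5 of 14 measured members higher and 1 lower. TGFBR3, or betaglycan, a coreceptor, had 8.08 on TWIST1 and 4.15 on LACZ, and TGFBR2, the type II receptor, had 12.16 on TWIST1 and 10.7 on LACZ. SMURF1, a ubiquitin ligase that removes SMADs and receptors, was lower at -1.09. Of 14 TGF-beta family ligands 1 was higher and 1 lower (list median 0.02): MSTN, or myostatin, had 5 on TWIST1 and 3.26 on LACZ, and INHBA, the activin A chain, had 9.9 on TWIST1 and 13.59 on LACZ. Of 8 antagonists 1 was higher, CRIM1 at 2.88, and 1 lower, FST at -9.17 (list median -0.2). INHBA and its antagonist FST were thus lower together.

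Of 35 measured WNT pathway genes 3 were higher and 3 lower (list median 0.04). WNT5A, a ligand of noncanonical signalling, had 7.47 on TWIST1 and 4.51 on LACZ, and its receptor ROR1 had 12.84 on TWIST1 and 10.03 on LACZ. FZD7 had 8.18 on TWIST1 and 6.89 on LACZ. SFRP1, a secreted WNT antagonist, had 6.18 on TWIST1 and 11.63 on LACZ, the largest difference of the list. Of 9 Notch pathway genes 1 was higher, NOTCH2 at 1.04, and 1 lower, the target gene HES1 at -1.77 (list median -0.08). NOTCH2 was under the 2-fold threshold with quantile normalization, at 0.96, and with loess scaling, at 0.94.

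Of 9 insulin-like growth factor genes 6 were higher and 0 lower (list median 1.38). The binding proteins IGFBP3 and IGFBP2 had 11.73 and 9.37 on TWIST1, against 8.01 and 5.75 on LACZ, and the adaptor IRS1 had 7.41 on TWIST1 and 4.83 on LACZ. Of 26 G protein-coupled receptors and enzymes of lysophospholipids 8 were higher and 3 lower (list median 0.14). PLPP3, which degrades lysophosphatidic acid at the cell surface, had 12.97 on TWIST1 and 6.19 on LACZ, and ENPP1 had 9.78 on TWIST1 and 4.27 on LACZ. LPAR3, a receptor of lysophosphatidic acid, had 7.94 on TWIST1 and 11.83 on LACZ, so the enzyme ENPP2 and this receptor stood on opposite sides. Of 15 regulators of G protein signalling 3 were higher and 0 lower (list median 0.11), namely RGS4, RGS2 at 2.73 and RGS5 at 1.59.

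Genes of cytokine signalling were called in both directions. Of 39 measured interleukins, chemokines and their receptors 7 were higher and 7 lower (list median 0). IL1R1, the signalling receptor of interleukin 1, was higher, with 12.87 on TWIST1 and 6.51 on LACZ, whereas the decoy receptor IL1R2 was lower at -1.59. ACKR3, a scavenging chemokine receptor, had 8.84 on TWIST1 and 4.04 on LACZ, and IL7R had 11.99 on TWIST1 and 9.4 on LACZ. CXCL8, a neutrophil chemokine, had 8.03 on TWIST1 and 9.23 on LACZ.

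Of 16 NF-kB targets and innate sensors 5 were lower and 1 higher (list median -0.54). TNFAIP3, a feedback inhibitor of NF-kB, had 9.76 on TWIST1 and 12.41 on LACZ, and NFKB1 had 10.08 on TWIST1 and 11.48 on LACZ. PTX3, a soluble pattern receptor that fibroblasts also secrete, was the higher member, with 10.54 on TWIST1 and 5.56 on LACZ. Of 29 interferon-stimulated genes 9 were lower and 2 higher (list median -0.2). IFI44 had 7.6 on TWIST1 and 10.58 on LACZ, while its neighbour and relative IFI44L had 6.27 on TWIST1 and 3.46 on LACZ. IFIH1 and DDX60, which take part in sensing viral RNA, had 6.62 and 6.85 on TWIST1, against 8.99 and 9.4 on LACZ. Of 17 HLA and antigen processing genes 3 were lower and 1 higher (list median 0.05), and ERAP1, which trims peptides, was lowest at -1.82.

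Genes of neural structure and of the actin cytoskeleton were more often higher than lower. Of 39 measured axon guidance and neuronal genes 14 were higher (35.9%) and 2 lower (list median 0.18). UCHL1, a deubiquitinating enzyme abundant in neurons, had 10.58 on TWIST1 and 4.11 on LACZ. SYT11, a synaptotagmin of vesicle traffic, had 10.62 on TWIST1 and 4.21 on LACZ. MAP1B, a microtubule-associated protein of growing axons, had 14.52 on TWIST1 and 8.72 on LACZ, and SLIT3, a guidance ligand, had 9.2 on TWIST1 and 4.07 on LACZ. ROBO1, a receptor of SLIT proteins, was lower, with 10 on TWIST1 and 11.05 on LACZ. SEMA3A differed by -3.77, but by -0.44 by the median over its probe sets.

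Of 32 actin-binding and contractile genes 13 were higher (40.6%) and 2 lower (list median 0.53). FHL3 and FHL2, LIM-domain proteins of stress fibres and nuclei, had 10.52 and 14.04 on TWIST1, against 6.96 and 11.61 on LACZ. MYLK, the kinase of myosin light chains, had 11.88 on TWIST1 and 9.05 on LACZ, and CALD1, or caldesmon, had 13.28 on TWIST1 and 11.68 on LACZ. Of 7 YAP and TAZ target genes 4 were higher and 1 lower (list median 1.1), led by CCN2, a matricellular protein, with 13.85 on TWIST1 and 8.62 on LACZ. F3, tissue factor, was the lower member at -1.86.

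Among transcription factors, partners and relatives of TWIST1 were looked at first. Of 41 measured bHLH and ID factors 8 were higher and 1 lower (list median 0.05). ID2 had 11.26 on TWIST1 and 5.91 on LACZ, and ID3 had 11.66 on TWIST1 and 8.43 on LACZ. EPAS1, a hypoxia-inducible factor subunit, had 13.52 on TWIST1 and 10.88 on LACZ, MSC, or musculin, had 7.52 on TWIST1 and 5.41 on LACZ, and BHLHE40 had 12.95 on TWIST1 and 11.16 on LACZ. TWIST2, the closest relative of TWIST1, had 7.1 on TWIST1 and 6.86 on LACZ, and HAND1 and HAND2 lay below the floor on TWIST1 and LACZ.

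Of 6 genes reported elsewhere as targets of TWIST1 5 were measured, and 2 of them were higher, 0 lower (list median 0.38). PDGFRA differed by 4.04, and SNAI2, which encodes the EMT factor Slug, had 16.75 on TWIST1 and 15.55 on LACZ. YBX1, a nucleic acid binding protein, had 17.66 on TWIST1 and 17.28 on LACZ. MIR10B, a microRNA gene, and TNF, a cytokine gene, had 3.08 and 3.49 on TWIST1, against 3.71 and 4.69 on LACZ, below the floor in each case.

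Of 53 measured mesenchymal and developmental transcription factors 13 were higher (24.5%) and 1 lower (list median 0.15). PRRX1, a homeobox factor of limb and skeletal mesenchyme, had 10.71 on TWIST1 and 3.84 on LACZ. CITED2, a coregulator, had 15.14 on TWIST1 and 9.01 on LACZ, and NR2F1, a nuclear receptor of neural crest cells, had 10.06 on TWIST1 and 4.08 on LACZ. PPARG, the nuclear receptor of fat cell formation, had 12.02 on TWIST1 and 7.11 on LACZ, and the EMT factor ZEB2 had 7.03 on TWIST1 and 3.57 on LACZ. PRDM1, a repressor, was the lower member at -1.72. Of 9 HOX genes 0 were higher and 0 lower (list median 0), and 7 of the 9 lay below the floor on the pair.

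Of 17 MAPK feedback and immediate early genes 4 were higher and 3 lower (list median 0.35). DUSP1, a phosphatase that inactivates MAP kinases, had 9.91 on TWIST1 and 5.23 on LACZ, and EGR1, a serum-responsive factor, had 15.99 on TWIST1 and 12.98 on LACZ. ATF3, a stress-induced factor, had 5.01 on TWIST1 and 7.37 on LACZ.

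Few proliferation genes were called. Of 40 measured mitosis and replication genes 4 were higher and 0 lower (list median 0.45), among them the mitotic kinesin KIF20A at 1.93 and the helicase subunits MCM7 and MCM2 at 1.06 and 1.01. With quantile normalization 3 of the 4 were under 2-fold, MCM7 and NCAPH at 0.96 and MCM2 at 0.95, and MCM2 differed by 0.35 by the median over its probe sets. Of 4 cell cycle inhibitors and cyclins D 0 were called in either direction (list median 0.06), and the inhibitor CDKN1A had 10.41 on TWIST1 and 10.63 on LACZ.

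Metabolic lists were mixed. Of 15 measured NRF2 target genes 8 were higher and 1 lower (list median 1.16). The glutathione transferases GSTA4, GSTM3, GSTM2 and GSTM4 had 10.52, 8.05, 6.91 and 5.7 on TWIST1, against 5.77, 3.71, 3.92 and 3.07 on LACZ, although the GSTM genes are close paralogs whose probes may share signal. SLC7A11, the cystine transporter that supplies glutathione synthesis, was lower at -1.02. GCLC, ME1 and GCLM were not called but lay below LACZ, at -0.73, -0.61 and -0.44. AKR1B10, GSTM1 and PRDX1 were not called either, at 0.15, 0.67 and 0.86. The median of the NRF2 list against LACZ was 1.66 on FOXQ1 and 0.68 on both SNAI1 and ZEB2. Of 15 hypoxia and glycolysis genes 5 were higher and 4 lower (list median 0.48), with P4HA2 at 2.37 and BNIP3L at 2.03 above and NDRG1 at -1.54 below. Of 9 cholesterol synthesis genes 3 were higher and 0 lower (list median 0.48), and SCAP, the escort of the sterol-sensing factors, led at 2.27. INSIG1 followed at 1.21 and FDPS at 1, and FDPS was not called under quantile normalization or loess scaling. Not called were HSD17B7 at 0.89, CYP51A1 at 0.48, ACAT2 at 0.2, SQLE at 0.02, MSMO1 at -0.17 and HMGCS1 at -0.51.

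Markers of cell types were read to check the labelled line. Sums given for them add log2 levels, members below the floor included, so a ratio of sums is not a fold difference. Of 5 measured basal mammary markers 3 were lower and 0 higher (list median -1.17), with a summed level of 60.62 on TWIST1 and 66.64 on LACZ. S100A2, a basal keratinocyte protein, had 18.2 on TWIST1 and 18.85 on LACZ. Of 7 luminal mammary markers 2 were lower and 1 higher (list median -0.29), with sums of 36.02 on TWIST1 and 51.56 on LACZ, and ELF3, PROM1, KIT and ESR1 were below the floor on both arrays.

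Of 8 measured fibroblast markers 6 were higher and 0 lower (list median 3.94), with sums of 69.69 on TWIST1 and 45.36 on LACZ. The exceptions were FAP, with 9.16 on TWIST1 and 9.47 on LACZ, and TCF21, below the floor on both. These 6 markers were higher on the same array as the called matrix genes, and COL1A2 is counted in both groups. DDR2, another of the 6, was at the threshold, with a difference of 1. The part of these markers in the matrix values was not tested. In bulk RNA, more cells of a kind and more RNA per cell cannot be told apart. Few markers of blood, vessel and pigment cells were called: 1 of 11 leukocyte markers was higher and 0 lower (list median 0), with sums of 49.76 on TWIST1 and 48.95 on LACZ, and PTPRC, the pan-leukocyte marker, had 4.9 on TWIST1 and 5.03 on LACZ. Of 7 endothelial markers 1 was higher, VCAM1 (list median 0.06), with sums of 28.57 on TWIST1 and 26.58 on LACZ, and KDR and TEK were below the floor. Of 3 melanocyte markers 1 was higher, MITF (list median 0.09), with sums of 13.75 on TWIST1 and 12.57 on LACZ.

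Few of the called genes set the TWIST1 array apart from all 4 other arrays. A gene counted when it was called against LACZ and also differed 2-fold or more, in that direction, from each of FOXQ1, SNAI1 and ZEB2. There were 53 such genes higher on TWIST1, 4.88% of the higher calls, and 10 lower, 1.59% of the lower calls. Of the higher ones 44 were protein-coding, and of the lower ones 2.

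PANTR1, a long noncoding RNA gene (chromosome 2, 104805425 to 104853183), stood furthest apart. Its level was 10.56 on TWIST1, between 3.94 and 4.9 on the FOXQ1, SNAI1 and ZEB2 arrays, and 4.09 on LACZ. Its neighbour POU3F3, a neural transcription factor (chromosome 2, 104853276 to 104927773), was apart too, with 7.36 on TWIST1, between 5.26 and 5.91 on the other factor arrays, and 5.56 on LACZ. PDGFRA (chromosome 4, 54229293 to 54298245) had 8.58 on TWIST1, between 4.37 and 5.19 on the other factor arrays, and 4.54 on LACZ. Its E-boxes are shown above.

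DPT, the dermal matrix protein dermatopontin (chromosome 1, 168695468 to 168729206), had 8.9 on TWIST1, between 5.03 and 5.7 on the other factor arrays, and 4.63 on LACZ. Next came the noncoding gene LOC100128885, with 8.32 on TWIST1, at most 4.64 on the other factor arrays, and 5.29 on LACZ. SELENOP, a secreted selenium carrier, had 7.07 on TWIST1 and 4.17 on LACZ, and PSCA, a small surface antigen, had 7.29 on TWIST1 and 4.19 on LACZ. DRC11 and the pseudokinase gene TRIB2 had 6.6 and 6.88 on TWIST1, against 4.34 and 5.07 on LACZ. For these 8 leading genes the nearest other array lay between 1.81 and 5.66 below TWIST1.

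The group of 53 held members of several lists described above. ID2, higher on SNAI1 and ZEB2 as well, had 11.26 on TWIST1, with 10.08 on SNAI1, 8.48 on ZEB2, 6.35 on FOXQ1 and 5.91 on LACZ. SNAI2 had 16.75 on TWIST1 and between 13.22 and 15.72 on the other factor arrays. SYT11, PLAC8, SEMA5A, P3H2, FZD7, ETV1, MSTN, CDH10 and SCAP also belonged to it. FAM20C, a kinase of secreted proteins, had 11.06 on TWIST1, between 7.93 and 8.84 on the other factor arrays, and 9.34 on LACZ.

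On the lower side TMEM200A, a membrane protein gene (chromosome 6, 130365531 to 130443067), led, with 7.19 on TWIST1, between 9.27 and 9.65 on the other factor arrays, and 9.65 on LACZ. SLC7A11 and its antisense gene SLC7A11-AS1 had 9.38 and 5.05 on TWIST1, against 10.4 and 6.6 on LACZ, and both were higher still on FOXQ1, at 12.06 and 7.53. The other leading genes were MIR548AU, APTR, RNU6-942P, COQ10BP2, LINC01189 and SNORD70, which are noncoding or pseudogenes, with differences from LACZ between -2.46 and -1.12. Of these 6 genes, RNU6-942P alone was above the floor on TWIST1, at 6.42.

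**Figure D5:**
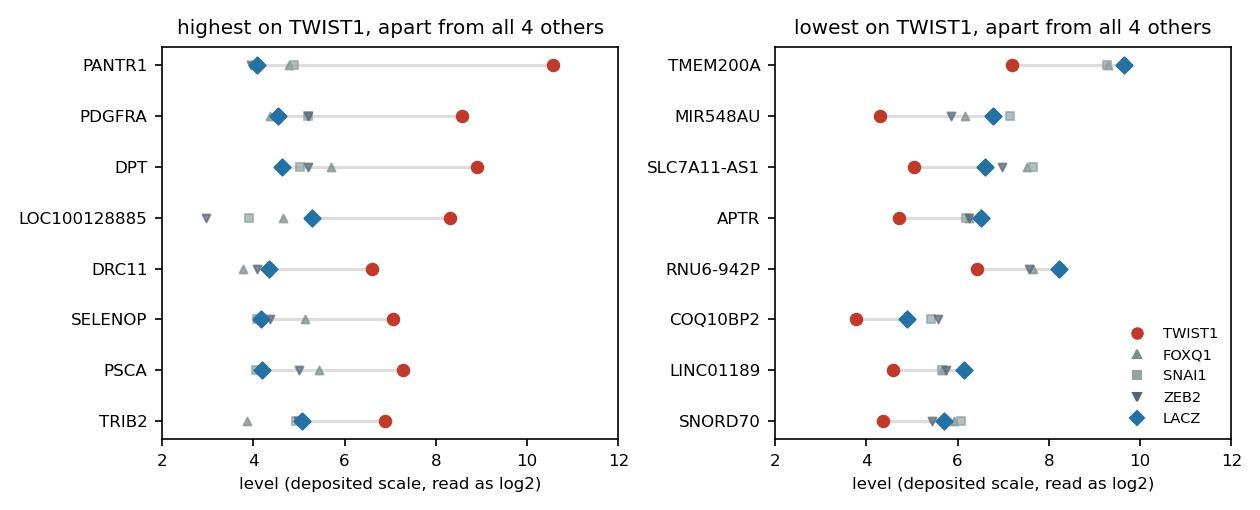
The 8 genes in each direction with the widest gap between TWIST1 and the nearest of the other 4 arrays are plotted by level (deposited scale, log2), with TWIST1 as red circles, LACZ as blue diamonds and FOXQ1, SNAI1 and ZEB2 in grey. PANTR1 stands at 10.56 on TWIST1 with the other arrays between 3.94 and 4.9, and TMEM200A at 7.19 with the others between 9.27 and 9.65.

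Genes with more than 1 probe set gave a second reading on the same arrays, which is not a replicate. Of 90 higher genes with other probe sets, these differed, by their median, in the same direction for 51, by 2-fold or more for 14, and by 2-fold or more the other way for 5. Of 42 lower genes, the other probe sets went the same way for 29, by 2-fold or more for 6, and the other way by 2-fold for 0. Where the other probe sets reached the floor, 31 of 52 higher and 15 of 19 lower genes had the same direction. Of the called genes named above, the median over the probe sets moved the difference by over 1.5 times for ENPP2, DOCK10, MACC1, ITGB6, SEMA3A, TRPS1, COL1A2, WNT5A, P4HA2, GSTM2, MARVELD2, ERAP1 and MCM2. By that median COL1A2 differed by 1.88 in place of 4.52, WNT5A by 1.49 in place of 2.96 and P4HA2 by 1.37 in place of 2.37. GSTM2 differed by 1.77 in place of 2.99, MARVELD2 by -2.9 in place of -4.65 and ERAP1 by -1.04 in place of -1.82.

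Called genes sometimes lay side by side on the chromosome. Runs of at least 3 adjacent protein-coding genes at the floor, all called the same way, numbered 52 with 174 genes on the higher side and 7 with 24 genes on the lower side, and the longest held 5. Among the 5218 protein-coding genes at the floor, 975 were called higher and 420 lower. How many runs these call frequencies alone would give was not tested. The chromosome 2 run from 236306685 to 237555322 held DRC11, ACKR3, COPS8, COL6A3 and MLPH. The run on chromosome 8 from 38411143 to 39105261 held FGFR1, TACC1, PLEKHA2, TM2D2 and ADAM9. On the lower side, the run on chromosome 6 from 137866349 to 138693212 held TNFAIP3, PERP, ARFGEF3, HEBP2 and NHSL1. Copy number and shared regulation were not tested as sources of such runs.

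In 104 pairs of a gene and its named antisense gene at least 1 partner was called, in 23 both were, and in 21 of these both went the same way. VCAN-AS1 had 11.11 on TWIST1 and 5.07 on LACZ beside VCAN, a difference of 6.04 that was 3.49 by the median over its probe sets. NR2F1-AS1 had 10.13 on TWIST1 and 4.59 on LACZ beside NR2F1, and HHIP-AS1 had 7.74 on TWIST1 and 2.87 on LACZ beside HHIP. The exceptions were IGF2BP2-AS1 and TMEM44-AS1, lower at -1.23 and -1.11 beside hosts that were higher. How the probes treat strand is not given in the sources used here, so signal of a gene and its antisense partner cannot be told apart.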

How the data were processed

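RNA from 5 HMLE-derived lines was measured on 1 Affymetrix array each, and the TWIST1 and LACZ arrays were compared, grouped by the sample labels. The values the authors deposited, 1 table of probe sets, were taken to be log2 because they ran from 1.99 to 19.73 with 2 decimals; the log base is not stated. Transcriptome Analysis Console and hg38 are named in the submitters' processing notes; version, settings, normalization and array model are not given in the sources used here. In precision, the number of arrays is the limit.

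Of 65521 probe sets, 16126 had 1 gene symbol in the platform annotation, 419 several and 48976 none. RefSeq (GRCh38.p14) held 15764 of the symbols' probe sets, and 194 whose chromosome differed were left out, leaving 15570 for 14916 genes. The floor of 4.72 is the median of gene mean levels, reached by 7970 genes on TWIST1 or LACZ. No detection calls were used, nothing was rescaled, and genes beyond the covered chromosomes were not analysed here.

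The members, the 46 gene lists and the named genes were chosen with earlier results of these data known. Named were TWIST1, the 15 largest differences each way, the 8 genes each way furthest apart from the other arrays, and up to 6 called members per list or members with a set role; other genes named for neighbours, antisense partners, contrast within a list or the threshold were picked after their values were seen. The motif CAGGTG with its complement, and the E-boxes with GC or CG at the centre, were added after seeing the data. The calling code was tested on simulated data, made from the LACZ values with added noise and planted changes. The planted changes lay well past the threshold and in bright genes. That run therefore says nothing of real differences near the threshold or the floor. Alternatives were quantile and loess scaling (span 0.3), centring, floors, thresholds and probe set choices. Software was matplotlib 3.10.9, statsmodels 0.14.6, pandas 2.3.3, numpy 2.4.6 and Python 3.11.15.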

Additional observations from a re-analysis of the deposited data

Results flagged for a closer look

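Probe sets without a gene symbol also carried signal that differed between TWIST1 and LACZ and that enters no comparison above. Of 48976 such probe sets, 840 (1.72%) were 2-fold or more higher on TWIST1 and 1388 (2.83%) were 2-fold or more lower, with the same floor. The largest differences were 8.85 and -9.17. Unlike the named genes, these probe sets had more lower than higher calls, and which transcripts they measure is not known here.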

How the results depend on the processing

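No paired analysis was possible because each line has 1 array. The counts of 1085 higher and 630 lower genes stayed within 1.5 times under quantile and loess scaling, centring, no floor, other choices of probe set, and the 2 alternatives added after seeing the data. Stricter or looser rules moved them by construction: a floor of 7.92, at percentile 75, left 335 lower genes, a 3-fold threshold left 517 higher and 268 lower, and a 1.5-fold threshold gave 1909 higher and 1325 lower. Quantile normalization over the named genes only, added after seeing the data, gave 53% higher in place of 63.3%. The 53 genes apart and higher became 29 with the higher floor, 11 at 3-fold and 232 at 1.5-fold. The 10 genes apart and lower became 6 under quantile or loess scaling, 3 with the higher floor, 1 at 3-fold and 64 at 1.5-fold. Of 318 called genes that the lists and the naming rule hold, 0 changed direction under the alternatives run. Over all 1715 called genes, the sign turned for 4 with the median of probe sets: ARPP21, EXT1, POGZ and SIL1. Of the 318, 10 were not called under quantile normalization: EPGN, FDPS, HK2, IGF2BP2, MCM2, MCM7, NCAPH, NOTCH2, TCF7L1 and TFCP2L1. Loess left out 8 and quantile normalization over named genes only 18, NOTCH2 and MCM7 among both. With the median of probe sets 12 were not called: CDC42EP3, CTSB, DDX60L, HTRA3, IGF2BP2, ITGB6, MCM2, SEMA3A, SLIT2, SORBS2, SQSTM1 and TRPS1. That choice also changed the median of the fibroblast markers to 2.86. Without detection calls, signal over background at low levels is unknown.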

Other observations

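Of the 1715 genes called on TWIST1, a few were called in the opposite direction on another factor array, against the same LACZ array. There were 25 such genes with FOXQ1, 13 with ZEB2 and 10 with SNAI1. These counts also depend on how many genes each other array called in all, which is not given here. CDK14, a cyclin-dependent kinase linked to WNT signalling, had 9.71 on TWIST1, against 3.14 on FOXQ1 and 6.65 on LACZ. TNIK, a kinase of the same pathway, had 8.53 on TWIST1, against 4.28 on FOXQ1 and 6.55 on LACZ. CLDN11 had 10.53 on TWIST1 and 10.66 on FOXQ1, against 4.39 on SNAI1, 4.27 on ZEB2 and 6.74 on LACZ. QRFPR, a neuropeptide receptor, had 7.19 on TWIST1, against 12.08 on ZEB2 and 8.66 on LACZ. NIBAN1 had 5.41 on TWIST1, against 9.87 on FOXQ1 and 8.44 on LACZ. These genes were picked after their values were seen.

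Windows of 10 Mb were read where at least 15 genes reached the floor on any of the 5 arrays. The median differences of these 158 windows ran from -0.5 to 0.53. The highest was on chromosome 3 between 50 and 60 Mb, where 28 of 91 genes were higher and 1 lower on TWIST1. The window between 40 and 50 Mb of that chromosome had a median of 0.46, with 27 of 127 genes higher and 1 lower. Its windows at 0 to 10 and 10 to 20 Mb had medians of 0.5 and 0.45. Those at 20 to 30 and 30 to 40 Mb had 0.16 and 0.11. In the 50 to 60 Mb window the medians of the other factor arrays minus LACZ were 0.24 on FOXQ1, 0.11 on SNAI1 and 0.4 on ZEB2. On chromosome 8 the windows at 20 to 30 and 30 to 40 Mb had medians of 0.44 and 0.43 on TWIST1. The lowest median was on chromosome 6 between 90 and 100 Mb, at -0.5 on TWIST1 and between -0.49 and -0.41 on the others.

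Several genes apart from all 4 other arrays lay close together. CEP15 and PTPRG-AS1 on chromosome 3 had 11.71 and 10.46 on TWIST1, against 9.96 and 8.86 on LACZ. SUSD3 and CARD19 on chromosome 9 had 5.63 and 10.98 on TWIST1, against 4.09 and 9.11 on LACZ. GPR137B and EDARADD on chromosome 1, in a run that also holds NID1 and ERO1B, had 8.97 and 7.36 on TWIST1, against 6.53 and 5.94 on LACZ. VTRNA2-1, a small RNA gene of the vault RNA family, had 10.73 on TWIST1, between 8.48 and 9.72 on the other factor arrays, and 7.07 on LACZ.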
